A study of Mus musculus with 6 samples.

Results

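The mitochondrial ribosomal protein genes were taken as every row of the deposited count table whose mouse gene symbol begins with Mrpl or Mrps followed by a digit. The rule found 83 rows among 51912 gene IDs, 51 for the large subunit (Mrpl) and 32 for the small subunit (Mrps). Of these, 78 are protein-coding genes and 5 are pseudogene rows. The rule reads symbols alone and no measured value. RNA was sequenced from EL4, a line of mouse T-cell lymphoma labelled as T lymphocytes of WT genotype, in 2 groups of 3 libraries. One group had been kept for 24 h with 10 µM RGFP966, which inhibits HDAC3, a histone deacetylase, and the other with vehicle. The series compares gene expression between these groups in this one cell line, and the labels neither name the vehicle nor tell whether each library had its own culture.

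Mitochondria carry their own ribosomes, which translate the few proteins encoded by the mitochondrial genome, all of them subunits of the respiratory chain and of the ATP synthase. The rRNAs of these ribosomes are transcribed inside the organelle, while every protein of the particle is encoded in the nucleus, made in the cytosol and imported. Some of the proteins descend from those of bacterial ribosomes, and others were added during the evolution of mitochondria and have no bacterial counterpart.

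Library totals ran from 12935443 to 14768540 counts with RGFP966 and from 15380331 to 16451017 with vehicle. The mitochondrial ribosomal protein rows took 0.379% to 0.390% of the counts of RGFP966 libraries and 0.390% to 0.410% of those of vehicle libraries. All 12 T cell markers examined passed the count filter, and their summed level was 2962 to 3026 CPM with RGFP966 and 2860 to 2887 CPM with vehicle. They did not move one way: at an adjusted p under 0.05, 4 were higher (Ptprc, Cd5, Cd2 and Trac) and 3 lower (Lat, Cd247 and Zap70). These are 58.3% of the markers, against 23.3% of all genes that passed the filter. Ptprc alone averaged 756 CPM with RGFP966 and 648 CPM with vehicle. Pou2f1 overlaps 60.3% of the exons of Cd247 on the other strand, so their reads may not be separable. The submitters' extraction text speaks of retinas, but of 14 retina markers 2 passed the filter, their sum was 5.14 to 5.63 CPM with RGFP966 and 4.84 to 5.37 CPM with vehicle, and Crx, Gnat1, Gngt1 and Rpe65 had 0 counts in all 6 libraries. B cell markers summed to at most 1.18 CPM in any library, with Ms4a1 at 0, and myeloid markers to 9.18 to 9.77 CPM with RGFP966 and 8.28 to 10.3 CPM with vehicle, with Adgre1 at 0. Fibroblast markers summed to 54.2 to 56.6 CPM with RGFP966 and 44.1 to 45.1 CPM with vehicle, nearly all of it from Pdgfra, while Col1a1, Col1a2 and Dcn averaged under 1 CPM. The part of these markers, and of the lower depth of RGFP966 libraries, in the results was not tested. Levels are CPM, counts scaled to a common library total, and log2 fold changes set RGFP966 over vehicle. Genes with an adjusted p under 0.05 are referred to as called. In bulk RNA, a shift in the mix of cells and a shift in RNA per cell cannot be told apart, and every change is relative to the rest of the RNA.

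Of the 83 rows, 80 passed the count filter. Of these, 14 were called lower with RGFP966 (17.5%) and 3 higher (3.75%), and 63 were not called. Over all 13484 genes tested, 11.9% were called lower and 11.4% higher, 23.3% in all, so the share of mitochondrial ribosomal protein genes that changed in either direction (21.2%) was close to that of genes at large. Among the 5314 tested genes between 14.2 and 85.5 CPM, the range that holds the middle of the mitochondrial ribosomal protein genes by level, 14.8% were lower and 12.5% higher, 27.3% in all. The log2 fold change lay below 0 in 60 of the 80 genes (75%), against 50.4% of all genes tested, and the median was -0.07, against a median of -0.00 over all genes. The changes were small: the called genes ran from -0.61 to 0.24. Groups did not overlap in 26 of the 80, in 22 with RGFP966 lower and in 4 with RGFP966 higher, which is 32.5% of them, against 36.3% of all genes tested (18.5% lower and 17.8% higher). These counts and medians are descriptions, with no test of the list against other genes.

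**Figure D1:**
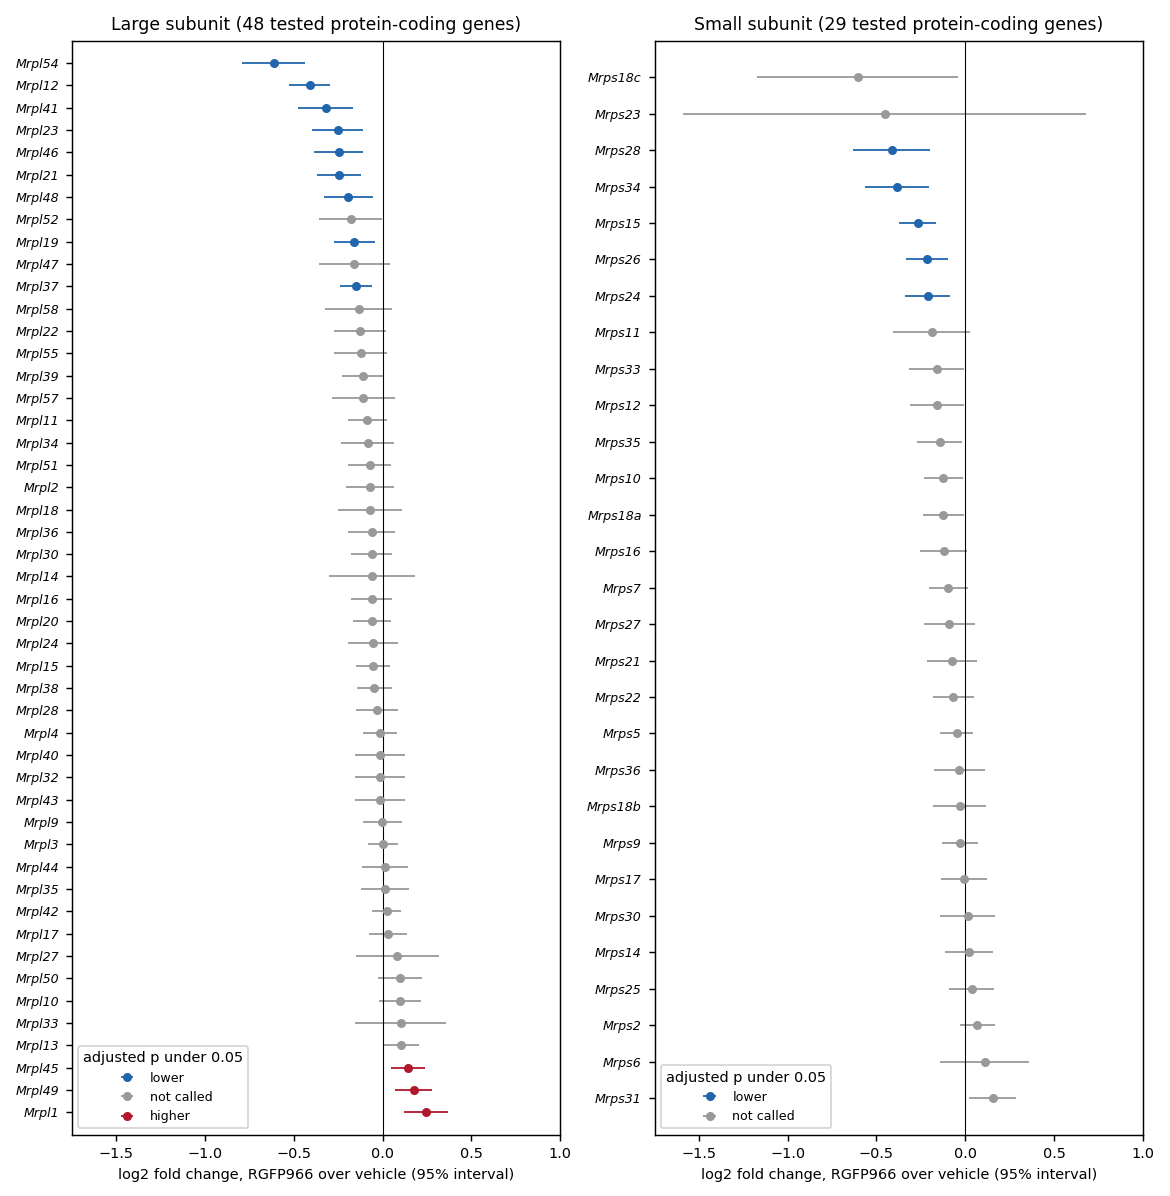
Log2 fold change of each tested protein-coding mitochondrial ribosomal protein gene (RGFP966 over vehicle, points) with its 95% interval (lines), large subunit on the left and small subunit on the right, blue for called lower, red for called higher and grey for not called. Most points lie left of 0, with Mrpl54 lowest among called genes at -0.61 and Mrpl1 highest at 0.24, and Mrps23 and Mrps18c have the widest intervals.

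In the large subunit 9 genes were lower and 3 higher among 50 tested, with a median log2 fold change of -0.06. That is 18% lower and 6% higher, 24% in all, against 11.9%, 11.4% and 23.3% of all genes tested. Mrpl54, a mitochondria-specific protein of the large subunit (chr10:81264713-81266934, minus strand, GRCm38), showed the largest called change. It held 18.7, 17.7 and 16.2 CPM in RGFP966 libraries 1 to 3, against 26.4, 29.4 and 24.6 CPM in vehicle libraries 1 to 3. Every RGFP966 library lay below every vehicle library, and the log2 fold change was -0.61 ± 0.09 (SE, adjusted p = 4.76e-07). Mrpl12 (chr11:120484613-120489065, plus strand) encodes the stalk protein that recruits translation factors to the ribosome. Its level was 45.9, 46.3 and 47.2 CPM with RGFP966 and 62.1, 62.1 and 61.2 CPM with vehicle. Its libraries scattered little within each group, the groups did not overlap, and the log2 fold change was -0.41 ± 0.06 (adjusted p = 1.69e-07).

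The only long stretch of sequence shown for a single gene is that before Mrpl12, because Mrpl12 had the smallest adjusted p of all mitochondrial ribosomal protein genes and its window holds a match to the motif of NRF1, a transcription factor of nuclear genes for mitochondria. The 250 bases before its RefSeq start (chr11:120484387-120484636, plus strand, RefSeq on GRCm38.p6) are given 5′ to 3′, with the match in capitals.
Mrpl12: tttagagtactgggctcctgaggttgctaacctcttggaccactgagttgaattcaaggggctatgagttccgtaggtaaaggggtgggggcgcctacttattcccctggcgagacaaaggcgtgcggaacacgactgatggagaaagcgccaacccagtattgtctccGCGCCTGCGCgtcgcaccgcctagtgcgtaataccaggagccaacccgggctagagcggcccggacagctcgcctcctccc
The match begins 81 bases before the start, and a match is a description of the letters and not evidence of binding.

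Mrpl41, another mitochondria-specific protein of the large subunit (chr2:24974117-24975098, minus strand), held 28.1, 23.9 and 29.0 CPM in RGFP966 libraries 1 to 3, against 34.0, 35.8 and 31.7 CPM in vehicle libraries 1 to 3. RGFP966 library 2 was the lowest of the 6, no libraries of the groups overlapped, and the log2 fold change was -0.32 ± 0.08 (adjusted p = 0.00152). Mrpl46 and Mrpl48 encode mitochondria-specific proteins of the central protuberance, the crest of the large subunit. Mrpl46 (chr7:78775236-78783531, minus strand) had 34.1, 34.4 and 34.2 CPM with RGFP966 and 38.9, 43.2 and 39.8 CPM with vehicle, a log2 fold change of -0.25 ± 0.07 (adjusted p = 0.00480). Mrpl48 (chr7:100545751-100608301, minus strand) had 37.8, 38.6 and 36.2 CPM with RGFP966 and 43.2, 46.6 and 38.8 CPM with vehicle, and its log2 fold change was -0.19 ± 0.07 (adjusted p = 0.0329). Both genes were lower in all 3 RGFP966 libraries than in any vehicle library, but the gap was wide for Mrpl46 and narrow for Mrpl48, which lost its call in 7 of the 16 alternative fits, among them those without RGFP966 library 1 or 3 and without vehicle library 1 or 2, where its adjusted p reached 0.231. Mrpl37, a mitochondria-specific protein that lies next to the Mrps30 protein in the large subunit (chr4:107055874-107066868, minus strand), had 96.8, 94.9 and 97.2 CPM with RGFP966 and 106, 105 and 109 CPM with vehicle. It changed by -0.15 ± 0.05 (adjusted p = 0.0127), a small difference between groups that were tight and did not overlap, and without vehicle library 3 its adjusted p was 0.0703.

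Among large subunit proteins with bacterial homologs, Mrpl21 and Mrpl23 were lower beside Mrpl12. Mrpl21 (chr19:3282901-3292837, plus strand) had 42.0, 41.7 and 40.7 CPM with RGFP966 and 48.8, 49.8 and 48.7 CPM with vehicle, and its log2 fold change was -0.24 ± 0.06 (adjusted p = 0.00220). Mrpl23 (chr7:142532686-142540747, plus strand), whose bacterial homolog sits at the exit of the peptide tunnel, had 31.6, 30.3 and 30.3 CPM with RGFP966 and 33.9, 38.7 and 37.1 CPM with vehicle, and its log2 fold change was -0.25 ± 0.07 (adjusted p = 0.00695). The groups were apart for both genes, and vehicle library 1 was the vehicle library closest to the RGFP966 ones for Mrpl23, whose adjusted p without vehicle library 2 was 0.0503. Mrpl19, the ninth of the lower genes, had 52.8, 58.9 and 53.8 CPM with RGFP966 and 63.1, 61.4 and 60.2 CPM with vehicle, and changed by -0.16 ± 0.06 (adjusted p = 0.0339). Its exons are overlapped over 36.0% of their length by Gcfc2 on the other strand, the sources used here do not give the strand setting of the counting, and 8 of the 16 alternative fits did not call it, among them those without any 1 library other than RGFP966 library 2, with adjusted p up to 0.164.

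Higher with RGFP966 were Mrpl1, Mrpl49 and Mrpl45. Mrpl1, whose bacterial homolog forms the mobile stalk beside the exit site for tRNA (chr5:96209493-96266727, plus strand), held 52.5, 47.7 and 51.1 CPM in RGFP966 libraries 1 to 3, against 41.4, 42.7 and 43.8 CPM in vehicle libraries 1 to 3. All RGFP966 libraries lay above all vehicle libraries, and the log2 fold change was 0.24 ± 0.06 (adjusted p = 0.00243). Mrpl49, a mitochondria-specific protein (chr19:6053622-6057785, minus strand), had 81.9, 75.3 and 76.5 CPM with RGFP966 and 66.8, 68.8 and 71.4 CPM with vehicle, a log2 fold change of 0.18 ± 0.05 (adjusted p = 0.00925). Mrpl45, which anchors the ribosome to the inner membrane near the tunnel exit (chr11:97315716-97329920, plus strand), had 106, 114 and 105 CPM with RGFP966 and 99.6, 101 and 93.3 CPM with vehicle, a log2 fold change of 0.14 ± 0.05 (adjusted p = 0.0213). Neither gene had overlapping groups. Mrpl49 lost its call in 3 of the 16 alternative fits (adjusted p up to 0.102, without RGFP966 library 1 or vehicle library 1 among them) and Mrpl45 in 4 (up to 0.166, without RGFP966 library 2 or vehicle library 3 among them).

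**Figure D2:**
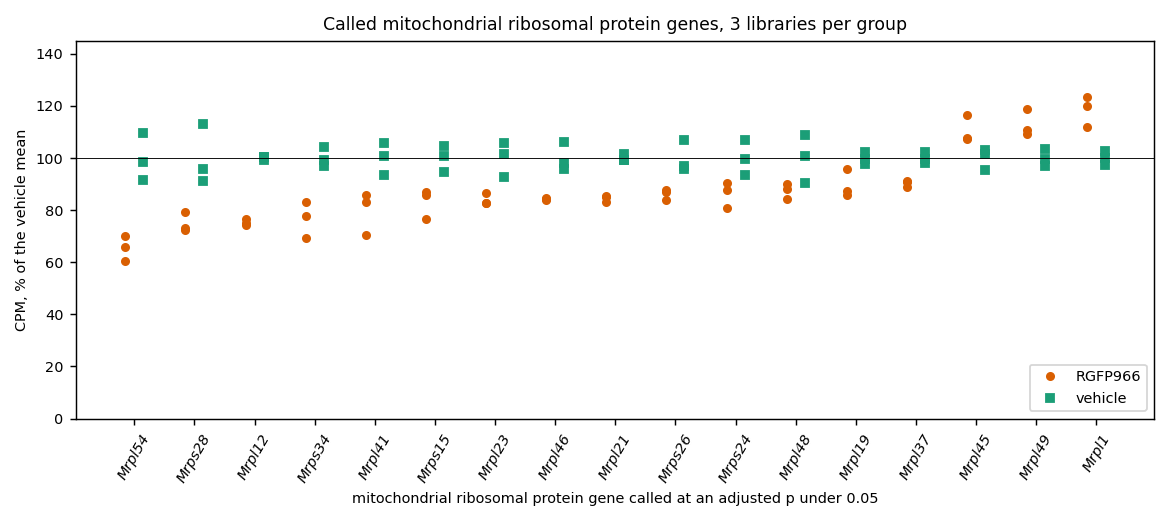
Level of each called mitochondrial ribosomal protein gene in every library, as a percentage of the gene's mean over the vehicle libraries (vertical axis), with RGFP966 libraries as circles on the left and vehicle libraries as squares on the right of each gene. The circles of 14 genes lie below their squares, and those of Mrpl45, Mrpl49 and Mrpl1 lie above.

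In the small subunit 5 of 30 tested genes were lower with RGFP966, 0 were higher and 25 were not called, with a median log2 fold change of -0.09. That is 16.7% called, all of them lower, against 23.3% of all genes tested called and 11.9% lower. By other fits the count of higher genes was 0 or 1 (0 by limma-voom and by the DESeq2 Wald test), and the one gene so called was Mrps31, a mitochondria-specific gene with 50.6, 45.9 and 42.8 CPM with RGFP966 and 41.4, 43.2 and 40.3 CPM with vehicle. Its lowest RGFP966 library lay among the vehicle libraries, and it had a log2 fold change of 0.16 ± 0.07 with an unadjusted p of 0.0217 and an adjusted p of 0.0795. Mrps15 (chr4:126046925-126055532, plus strand) encodes the homolog of a bacterial protein that binds the central domain of the small subunit rRNA early in assembly. It held 84.6, 83.6 and 74.6 CPM in RGFP966 libraries 1 to 3, against 98.0, 102 and 92.1 CPM in vehicle libraries 1 to 3. RGFP966 library 3 was the lowest, the groups did not overlap, and the log2 fold change was -0.27 ± 0.05 (adjusted p = 6.87e-05), the smallest adjusted p of the small subunit.

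Mrps28 (chr3:8802146-8923918, minus strand) was lower by the largest factor among called small subunit genes, with 12.2, 12.3 and 13.3 CPM with RGFP966 and 16.1, 19.0 and 15.4 CPM with vehicle. The libraries of each group stayed apart from the other group, and the log2 fold change was -0.41 ± 0.11 (adjusted p = 0.00294). Mrps34, a mitochondria-specific protein (chr17:24895116-24897502, plus strand), had 19.99, 18.6 and 16.6 CPM with RGFP966 and 23.8, 24.98 and 23.2 CPM with vehicle, a log2 fold change of -0.39 ± 0.09 (adjusted p = 8.94e-04). Its groups did not overlap either, but 77.8% of its exonic length is overlapped by Mapk8ip3 on the other strand, so the reads of the pair may not be separable, and Mapk8ip3 itself had a log2 fold change of 0.01 and was not called. Mrps24, the homolog of a bacterial protein at the entry of the mRNA channel (chr11:5703983-5715680, minus strand), had 44.0, 40.6 and 45.2 CPM with RGFP966 and 46.9, 53.6 and 49.95 CPM with vehicle, a log2 fold change of -0.21 ± 0.06 (adjusted p = 0.0109). Mrps26, a mitochondria-specific protein (chr2:130563742-130568695, plus strand), had 48.2, 50.2 and 50.5 CPM with RGFP966 and 61.6, 55.9 and 55.3 CPM with vehicle, a log2 fold change of -0.21 ± 0.06 (adjusted p = 0.00542). Both were lower in every RGFP966 library than in every vehicle library. Mrps24 lost its call in 4 of the 16 alternative fits (adjusted p up to 0.0908, DESeq2, the centred offsets for GC content and length described later, without RGFP966 library 2 and without vehicle library 2), and Mrps26 without vehicle library 1 (0.0774).

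By origin, the large subunit proteins with bacterial homologs had 4 genes lower and 1 higher of 30 tested, and the mitochondria-specific ones 5 lower and 2 higher of 21. For the small subunit, these counts were 3 lower and 0 higher of 16 for bacterial homologs, and 2 lower and 1 higher of 14 for mitochondria-specific proteins. The called shares of bacterial homologs and mitochondria-specific proteins were 16.7% and 33.3% in the large subunit. In the small subunit they were 18.8% and 21.4%, against 23.3% of all genes tested, and the classes were not tested against each other. The count of lower bacterial homologs in the large subunit was 2 without vehicle library 2, and that of higher mitochondria-specific ones was 1 without RGFP966 library 1 or 2 or vehicle library 1 or 3. These classes follow the structure of the mammalian particle, in which the proteins of Mrps30 and Mrps18a belong to the large subunit, and they include 5 proteins of the small or large subunit whose symbols do not begin with Mrp. The single higher gene of the last class is 1 of these 5, Ptcd3, a protein of the small subunit with RNA-binding repeats. Ptcd3 had 157, 153 and 151 CPM with RGFP966 and 138, 145.4 and 135 CPM with vehicle, and its groups did not overlap (log2 fold change 0.14 ± 0.04, adjusted p = 0.0109). It lost its call without RGFP966 library 1, without vehicle library 3 and with uncentred offsets for GC content and length. The other 4, Dap3, Chchd1, Aurkaip1 and Gadd45gip1, were not called, with log2 fold changes from -0.23 (Gadd45gip1) to 0.04 (Dap3).

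The level of the whole subunits moved little. Large subunit rows summed to 2596, 2607 and 2520 CPM with RGFP966 and to 2583, 2742 and 2632 CPM with vehicle, so the groups overlapped. Small subunit rows summed to 1294, 1278 and 1231 CPM with RGFP966 and to 1346, 1391 and 1308 CPM with vehicle, and here every RGFP966 library lay below every vehicle library. That separation depends on the scaling of the libraries (TMM): as a plain share of each library's counts, small subunit rows took 0.1298%, 0.1274% and 0.1244% with RGFP966 and 0.1342%, 0.1381% and 0.1296% with vehicle, and RGFP966 library 1 lay above vehicle library 3. The means were 2574 ± 47.8 CPM with RGFP966 and 2653 ± 81.4 CPM with vehicle for the large subunit, and 1268 ± 32.6 CPM with RGFP966 and 1348 ± 41.6 CPM with vehicle for the small subunit (SD, n = 3 each). The ratio of large to small subunit sums was 2.01, 2.04 and 2.05 with RGFP966 and 1.92, 1.97 and 2.01 with vehicle. Its groups overlapped, the mean ratio was 3.19% higher with RGFP966, and leaving out 1 library at a time gave 1.94% (without vehicle library 1) to 4.38% (without vehicle library 3). With each gene weighted alike, the median deviation from the vehicle mean was lowest in RGFP966 library 3, at -0.10 for the large and -0.15 for the small subunit on the log2 scale, and highest in vehicle library 2, at 0.05 and 0.06. Without vehicle library 2 the median log2 fold changes were -0.03 for the large and -0.05 for the small subunit, and without RGFP966 library 3 the small subunit median was -0.05.

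**Figure D3:**
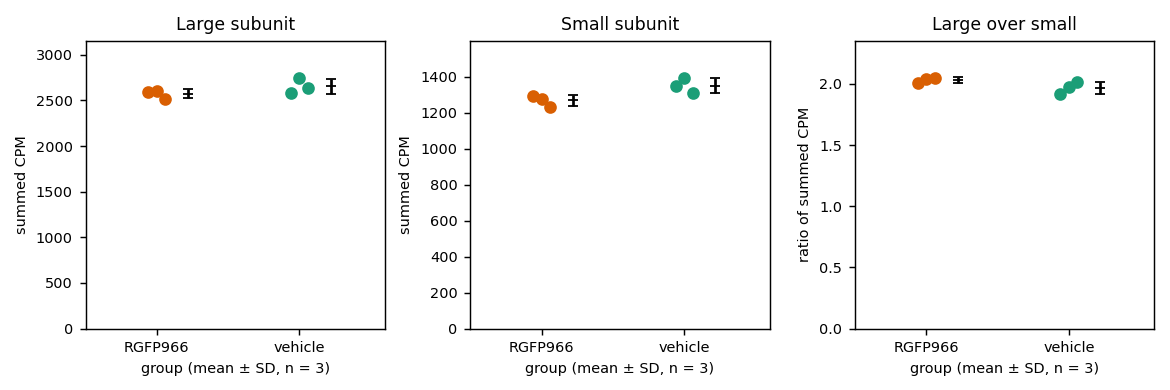
Summed CPM of the large subunit rows (left), of the small subunit rows (middle) and the ratio of the sums (right) in each library (points), with the group mean and SD (bars, n = 3), RGFP966 left of vehicle in each panel. The small subunit sums are apart, at 1231 to 1294 CPM with RGFP966 and 1308 to 1391 CPM with vehicle, while the large subunit sums and the ratios overlap, and as plain shares of library counts the small subunit groups overlap too.

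Levels per kilobase of annotated exon differed far more between genes than between groups. The exon length merges all annotated exons of a gene, 7326 bases for Mrpl33 and 607 bases for Mrpl34. The order of levels per kilobase therefore depends on the annotation as well as on the counts. The protein-coding large subunit genes ran from 1.46 CPM per kilobase (Mrpl33) to 53.3 (Mrpl34) with vehicle, with a median of 22.3 with RGFP966 and 23.9 with vehicle. Small subunit genes ran from 2.23 (Mrps18c) to 63.4 (Mrps21) with vehicle, with a median of 15.01 with RGFP966 and 15.60 with vehicle. The genes of highest level per kilobase were Mrpl34 (50.4 CPM per kilobase with RGFP966 and 53.3 with vehicle), Mrpl20 (50.1 CPM per kilobase with RGFP966 and 52.1 with vehicle) and Mrpl42 (49.7 CPM per kilobase with RGFP966 and 48.9 with vehicle) in the large subunit. In the small subunit they were Mrps21 (60.2 CPM per kilobase with RGFP966 and 63.4 with vehicle), Mrps15 (47.8 CPM per kilobase with RGFP966 and 57.5 with vehicle) and Mrps7 (33.2 CPM per kilobase with RGFP966 and 35.5 with vehicle). Of these 6, Mrps15 alone was called. Mrps21, homolog of a bacterial small subunit protein, had 44.3, 45.6 and 43.6 CPM with RGFP966 and 48.3, 52.1 and 40.2 CPM with vehicle. Vehicle library 3 lay below all RGFP966 libraries and the other vehicle libraries above them (log2 fold change -0.08 ± 0.07, adjusted p = 0.486). Mrps7, which encodes a protein of the small subunit head, had 73.5, 67.7 and 65.3 CPM with RGFP966 and 72.6, 78.0 and 69.8 CPM with vehicle, and its groups overlapped as well (adjusted p = 0.217). The log2 fold changes of Mrpl34, Mrpl20 and Mrpl42 were -0.08, -0.06 and 0.02, with adjusted p of 0.471, 0.464 and 0.752.

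For 60 protein-coding genes that were not called, the median half-width of the 95% interval was 0.13 on the log2 scale, and in 52 of them the whole interval lay within 0.32 of 0 on that scale. The smallest changes were those of Mrpl9 and Mrpl3 in the large and of Mrps17 and Mrps30 in the small subunit by symbol. Mrpl3, a core protein close to the catalytic center in bacteria, had 159, 159 and 153 CPM with RGFP966 and 152, 154 and 163 CPM with vehicle, and the interval of its log2 fold change was -0.08 to 0.09. Mrpl9 had 68.4, 67.7 and 62.1 CPM with RGFP966 and 62.6, 66.6 and 69.1 CPM with vehicle, with an interval of -0.11 to 0.11. Mrps17 had 41.9, 41.3 and 41.7 CPM with RGFP966 and 43.2, 42.7 and 39.7 CPM with vehicle, with an interval of -0.14 to 0.12. In each of these genes the groups overlapped. Mrps30, whose protein sits in the large subunit despite its symbol, had 27.0, 28.9 and 28.8 CPM with RGFP966 and 26.9, 29.3 and 27.8 CPM with vehicle, with an interval of -0.14 to 0.17. Mrps23, a mitochondria-specific protein, was the least precise, with 14.1, 7.52 and 14.1 CPM with RGFP966 and 12.4, 12.9 and 24.1 CPM with vehicle. RGFP966 library 2 was low and vehicle library 3 was high, the other 4 libraries lay close together, and the log2 fold change was -0.45 ± 0.42 (adjusted p = 0.537). Leaving it out moved the difference in the ratio of subunit sums to 2.88%.

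Mammals have 3 genes related to bacterial S18, and their proteins occupy different places, that of Mrps18a in the large subunit and those of Mrps18b and Mrps18c in the small subunit. Mrps18a had 54.6, 59.3 and 54.1 CPM with RGFP966 and 62.2, 60.9 and 59.6 CPM with vehicle, groups that did not overlap, and a log2 fold change of -0.12 ± 0.06 that was not called (adjusted p = 0.112). Mrps18b had 35.1, 30.9 and 29.8 CPM with RGFP966 and 33.1, 33.9 and 30.8 CPM with vehicle, with overlapping groups (log2 fold change -0.03 ± 0.07, adjusted p = 0.813). Mrps18c was counted far less, with 1.40, 1.71 and 1.61 CPM with RGFP966 and 2.80, 2.02 and 2.37 CPM with vehicle. Its RGFP966 libraries were all below its vehicle libraries, but at this depth the log2 fold change of -0.61 ± 0.28 was not called (adjusted p = 0.117), and 23.2% of its exons are overlapped by the predicted gene Gm43511 on the same strand. Mrps36, whose protein is now placed in a dehydrogenase complex of the citric acid cycle and not in the ribosome, had 35.3, 35.5 and 32.7 CPM with RGFP966 and 34.7, 37.8 and 33.3 CPM with vehicle (log2 fold change -0.03 ± 0.07, adjusted p = 0.790).

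Of the 5 pseudogene rows, Mrpl23-ps1, Mrpl48-ps and Mrps36-ps1 passed the filter and were not called. Their sequence is shared with the parent gene over 92.5%, 44.6% and 61.1% of 50-base words, so reads may belong to either row. Mrps36-ps2 had 7, 6 and 8 counts with RGFP966 and 2, 1 and 3 counts with vehicle, and Mrps36-ps3 had at most 3 counts in any library, and neither was tested. Mrpl53 was the only protein-coding gene that did not pass, with 0 counts in all 6 libraries. The predicted gene Gm42688 covers 88.0% of its exons on the same strand and had 5 to 12 counts per library, so the 0 counts were not read as absence of the transcript.

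Over 77 protein-coding mitochondrial ribosomal protein genes the log2 fold change had a Spearman correlation of -0.45 with the GC content of the annotated transcripts, against -0.10 over 13455 tested genes. The correlation with exonic length was 0.29, against 0.06 over all genes, and with the mean level 0.32, against -0.15. These points share the same 6 libraries and are not independent, so the values are descriptions. The 14 lower genes had a median GC content of 53.9%, the 60 not called one of 49.4% and the 3 higher ones 48.9%. With offsets fitted for GC content and length and centred in each library, 9 large and 5 small subunit genes were lower and 3 large subunit genes higher. The counts equal those without the offsets, but Mrps24 was no longer called there and Mrps35, not called without them, was called lower. With the same offsets not centred and the TMM factors left out, 10 large and 9 small subunit genes were lower and 1 large subunit gene was higher. The part of GC content in the calls was not otherwise tested.

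**Figure D4:**
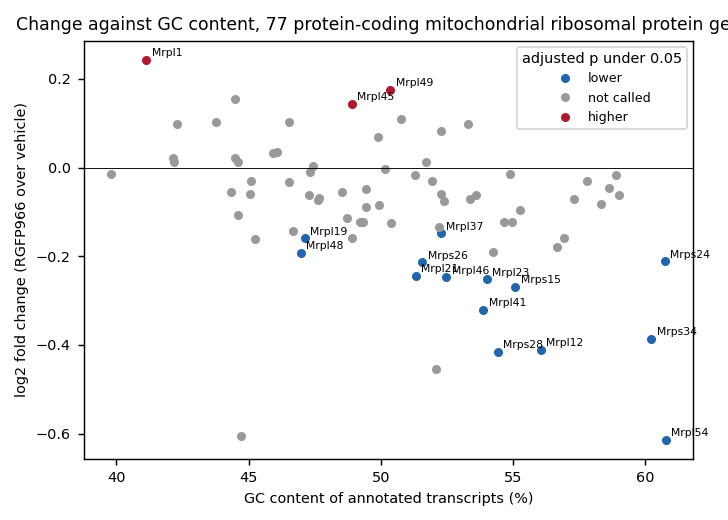
Log2 fold change (RGFP966 over vehicle, vertical axis) against the GC content of the annotated transcripts in percent (horizontal axis) for 77 protein-coding mitochondrial ribosomal protein genes, blue for called lower, red for called higher and grey for not called. Lower genes lie toward high GC content, with a median of 53.9%, and Mrpl54, Mrps24 and Mrps34 lie at the right edge.

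Many of these genes start head to head with another gene, an arrangement in which a short stretch of DNA can serve as promoter for both strands. Of the protein-coding mitochondrial ribosomal protein genes, 33 have a protein-coding neighbour on the other strand that starts within 1000 bases. In 29 such pairs both genes were tested. In 14 pairs neither gene was called, in 14 pairs 1 gene was called, in 1 pair the calls were opposite and in 0 pairs did both genes fall or both rise. Of the 29 partners, 7 were lower and 1 was higher, where 11.9% of all genes tested were lower and 11.4% higher. The higher one was Ppp1r10, which starts 45 bases from Mrps18b (log2 fold change 0.30 ± 0.05, adjusted p = 4.70e-06). The mitochondrial ribosomal protein gene was called in 8 of the 29 pairs. The log2 fold changes of the genes in a pair had the same sign in 18 of the 29 pairs. These counts were not set against other pairs of genes and are descriptions. The annotated genes are apart in 17 pairs and overlap in 12, where reads may not be separable.

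Mrpl49 and Fau were the pair with opposite calls. Fau encodes a fusion of a ubiquitin-like protein with a protein of the cytosolic small ribosomal subunit. Fau had 266, 276 and 263 CPM with RGFP966 and 312, 346 and 322 CPM with vehicle. It was lower in every RGFP966 library, and its log2 fold change was -0.28 ± 0.04 (adjusted p = 1.83e-07), while Mrpl49 was higher in every RGFP966 library. Sars2, the mitochondrial seryl-tRNA synthetase, was lower, with 23.7, 19.3 and 19.5 CPM with RGFP966 and 29.6, 25.8 and 26.4 CPM with vehicle (log2 fold change -0.39 ± 0.09, adjusted p = 6.69e-04). Its partner Mrps12, homolog of the bacterial protein that monitors decoding, changed by -0.16 ± 0.07 and was not called (adjusted p = 0.120). Ptcd2, a mitochondrial protein with RNA-binding repeats, was lower as well, with 57.0, 54.8 and 51.2 CPM with RGFP966 and 65.0, 65.2 and 61.9 CPM with vehicle (log2 fold change -0.24 ± 0.06, adjusted p = 0.00125). Its partner Mrps27 changed by -0.09 ± 0.07 and was not called (adjusted p = 0.406). Mrpl54, lowest of the called genes, starts 26 bases from Apba3, which was not called (log2 fold change -0.13 ± 0.08, adjusted p = 0.257). Mrpl46 and Mrps11 face each other, and Mrps11 was not called (log2 fold change -0.19 ± 0.11, adjusted p = 0.218). Whether the genes of a pair differ in their change was not tested.

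The bases between the starts are shown for the pairs with Fau, Sars2 and Ptcd2, the called partners just described that are not themselves mitochondrial ribosomal protein genes, on the strand of the mitochondrial ribosomal protein gene, 5′ to 3′, with the match to the motif of GABPA, an ETS factor, in capitals (RefSeq on GRCm38.p6, starts from GENCODE M21). The gap between Mrpl49 and Fau is chr19:6057786-6057843, minus strand, that between Mrps12 and Sars2 is chr7:28741821-28741991, minus strand, and that between Mrps27 and Ptcd2 is chr13:99344706-99344785, plus strand.
Mrpl49-Fau: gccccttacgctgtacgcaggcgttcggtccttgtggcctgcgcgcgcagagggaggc
Mrps12-Sars2: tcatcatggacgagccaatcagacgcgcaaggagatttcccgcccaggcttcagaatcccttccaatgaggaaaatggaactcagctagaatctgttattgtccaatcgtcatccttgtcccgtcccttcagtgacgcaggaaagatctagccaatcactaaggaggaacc
Mrps27-Ptcd2: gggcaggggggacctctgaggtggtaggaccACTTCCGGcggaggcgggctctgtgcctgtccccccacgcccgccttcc
The Mrpl49-Fau gap has 58 bases and a GC content of 70.7%, the Mrps12-Sars2 gap 171 bases and 49.7%, and the Mrps27-Ptcd2 gap 80 bases and 73.8%. The Mrpl49-Fau and Mrps12-Sars2 gaps held no match to the 4 motifs searched. The gaps of Mrps18b-Ppp1r10, Mrpl51-Ncapd2 and Mrpl57-Ska3, whose partners were also called, are not shown.

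**Figure D5:**
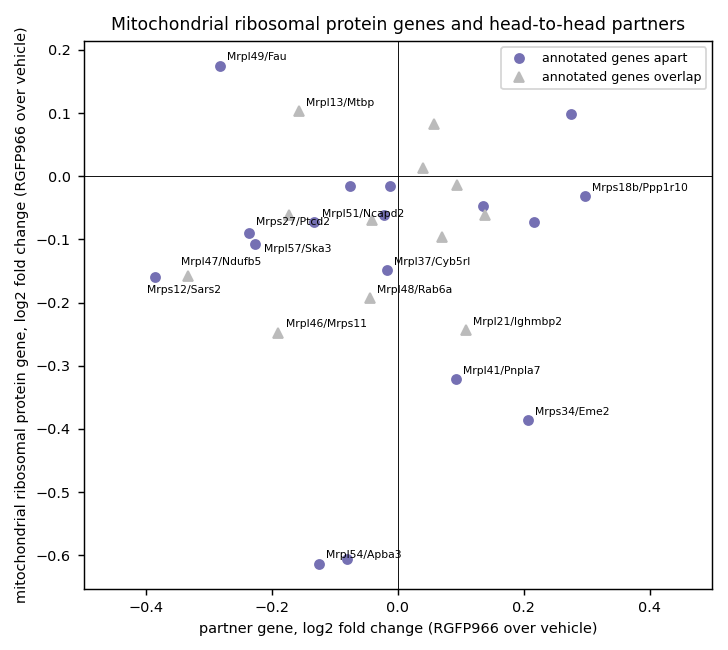
Log2 fold change (RGFP966 over vehicle) of mitochondrial ribosomal protein genes (vertical axis) against that of the gene that starts head to head with each (horizontal axis), one point per pair of 29, circles where the annotated genes are apart and triangles where they overlap. Pairs with a called gene are named. Mrpl49 and Fau lie at the upper left, and Mrpl54 lies lowest at -0.61, with its partner Apba3 at -0.13.

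Motifs of 4 factors linked to nuclear genes for mitochondria or for growth were searched on both strands in the 300-base RefSeq windows around gene starts, of which 75 belong to 69 mitochondrial ribosomal protein genes. The NRF1 motif was in 17.3% of these windows and in 4.6% of all 32851 windows, that of GABPA (CCGGAAGT) in 16% and 3.89%, that of YY1 (AAGATGGC) in 16% and 2.75%, and the E-box (CACGTG, bound by MYC) in 9.33% and 7.15%. No motif is contained in another. Of the 13 windows of genes that were lower, 2 held the NRF1 motif, 2 the GABPA motif, 2 the YY1 motif and 1 the E-box. Of the 58 windows of genes that were not called, 10, 10, 9 and 6 held them. For NRF1 these are 15.4% of the windows of lower genes and 17.2% of those not called.

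Regulators linked to nuclear genes for mitochondria or for growth were listed as a group of 13, of which 6 were lower and 2 higher. Called genes made up 61.5% of this list, against 23.3% of all genes tested and 27.3% of those between 14.2 and 85.5 CPM. The median level of the list was 84.6 CPM, and its share was not tested against other genes. Tfeb, a transcription factor of lysosomal and mitochondrial genes, had 25.6 ± 2.64 CPM with RGFP966 and 41.3 ± 1.78 CPM with vehicle (SD, n = 3 each), and its log2 fold change was -0.69 ± 0.07 (adjusted p = 3.00e-10). Gabpb2, a partner subunit of GABPA, changed by -0.28 ± 0.04 (adjusted p = 4.16e-07), and Esrra, a nuclear receptor of mitochondrial genes, by -0.23 ± 0.06 (adjusted p = 0.00268). Pprc1, a coactivator, changed by -0.17 ± 0.04 (adjusted p = 0.00284). The transcription factor Myc was higher, with 247 ± 5.24 CPM with RGFP966 and 218 ± 4.32 CPM with vehicle (SD, n = 3 each), and its log2 fold change was 0.18 ± 0.04 (adjusted p = 3.55e-04). Yy1, which binds the YY1 motif, was higher by 0.12 ± 0.04 (adjusted p = 0.0240). The count of higher genes in this list was 1 without RGFP966 library 1, RGFP966 library 2 or vehicle library 3. No relation between them and the mitochondrial ribosomal protein genes was tested.

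Other genes of mitochondrial translation were examined as lists. The rRNA of the large subunit, mt-Rnr2, had 470.0, 544 and 468 CPM with RGFP966 and 565, 601 and 591 CPM with vehicle. All RGFP966 libraries lay below all vehicle libraries (log2 fold change -0.25 ± 0.05, adjusted p = 4.01e-04). The rRNA of the small subunit, mt-Rnr1, had 127, 128 and 105 CPM with RGFP966 and 120.4, 127 and 117 CPM with vehicle, and its groups overlapped (log2 fold change -0.02 ± 0.06, adjusted p = 0.846). The sources used here do not say how rRNA was removed from the libraries. Of 12 tested mitochondrial mRNA genes, 2 were lower, mt-Nd1 (-0.17 ± 0.04, adjusted p = 8.30e-04) and mt-Nd2 (-0.10 ± 0.04, adjusted p = 0.0381), both subunits of respiratory complex I. The groups of mt-Nd1 did not overlap, while mt-Nd2 had 1276, 1387 and 1248 CPM with RGFP966 and 1374, 1445 and 1376 CPM with vehicle, so RGFP966 library 2 lay above vehicle libraries 1 and 3. Both share at most 8.19% of their 50-base words with other genes, whereas mt-Co2, mt-Co3, mt-Atp6, mt-Nd3 and mt-Nd4l share 97.99% to 100%, mt-Nd4 62.2% and mt-Co1 51.1%, so their reads may belong to other rows. Without RGFP966 library 1, RGFP966 library 3 or vehicle library 2 the count of lower mitochondrial mRNA genes was 1. As reported, 16.7% of the tested mitochondrial mRNA genes were called, against 23.3% of all genes tested.

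Of 24 tested genes for assembly of the particle and modification of its rRNA, 1 was higher and 0 were lower. That gene, Mettl15, an rRNA methyltransferase of the small subunit, changed by 0.29 ± 0.11 (adjusted p = 0.0483) and in 10 of the 16 alternative fits the number of higher genes in this list was 0. Of 14 translation factors and related genes, 3 were lower: Lrpprc, which stabilises mitochondrial mRNAs (-0.16 ± 0.05, adjusted p = 0.00698), Gfm1, an elongation factor (-0.15 ± 0.05, adjusted p = 0.0187), and Oxa1l, the insertase that receives the nascent chains (-0.15 ± 0.05, adjusted p = 0.0279). The DESeq2 Wald test called 1 gene of this list lower, as did the fit without vehicle library 1, and the count was 0 without RGFP966 library 3 or vehicle library 3. Of 20 mitochondrial aminoacyl-tRNA synthetases and related enzymes, 3 were lower and 2 higher. Iars2, which charges isoleucine tRNA, had 151 ± 1.78 CPM with RGFP966 and 181 ± 3.14 CPM with vehicle (SD, n = 3 each). Its log2 fold change was -0.25 ± 0.04 (adjusted p = 3.05e-06), and Rab3gap2 overlaps 24.2% of its exons on the other strand. Sars2 is described above, and Qrsl1, which converts misacylated glutamine tRNA, changed by -0.30 ± 0.07 (adjusted p = 6.85e-04). Aars2, the enzyme for alanine, was higher (0.22 ± 0.06, adjusted p = 0.00910). Of 12 genes for transcription and upkeep of mitochondrial DNA, 1 was lower, the polymerase gene Polg (-0.19 ± 0.06, adjusted p = 0.00890), and without vehicle library 1 the count was 0. Called genes made up 4.17% of the assembly list, 21.4% of the translation factors, 25% of the synthetases and 8.33% of this last list. Over all genes tested the share was 23.3%, and no list was tested against other genes.

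The cytosolic ribosome offers a family of like size. Among mitochondrial ribosomal protein genes 14 were lower and 3 higher of 80 tested, with a median log2 fold change of -0.07, and among cytosolic ribosomal protein genes 44 were lower and 1 higher of 77, with a median of -0.15. The median level was 44.6 CPM in the mitochondrial and 532 CPM in the cytosolic family, and the median SE of the log2 fold change was 0.07 and 0.04. Called genes made up 21.2% of the mitochondrial and 58.4% of the cytosolic family, against 23.3% of all genes tested. The difference between the families was not tested.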

How the data were processed

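The authors deposited whole-number counts per gene for 6 libraries of EL4 cells, and no other unit was used. The submitters' processing notes list HTSeq 0.6.0, HISAT2 2.1.0, TopHat2, Bowtie2 2.2.3, CASAVA and genome build mm10. The sources used here do not give their roles, the annotation or the strand setting. Libraries were made with a NEBNext Ultra RNA kit, per the labels' protocols.

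Symbols were matched for 51633 of 51912 gene IDs (99.46%). Positions, exon lengths, GC content, overlaps and shared 50-base words came from GENCODE M21 (GRCm38, 1-based), and promoter windows from RefSeq (GRCm38.p6). Counts were fitted in edgeR 4.0.16 under R 4.3.3 with group as the only term, after filterByExpr at its defaults and TMM scaling, by the robust quasi-likelihood F test with Benjamini-Hochberg adjustment over all 13484 genes tested. SE is the size of the log2 fold change divided by the root of F. The pipeline was tested on simulated data with changes larger than those of most called mitochondrial ribosomal protein genes. Recovery of smaller changes was not tested. Values of single libraries are CPM from the scaled totals, and errors are SD over 3 libraries. The p-values measure the spread between these libraries, which may be technical; duplicate reads cannot be told from separate molecules. No library was a copy of another of its group.

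The gene family, the lists and the tests were chosen with earlier results of these data known. Genes named with values were, for each subunit, up to 8 called lower and 5 called higher of smallest adjusted p, the 3 of highest level per kilobase and the 2 of smallest change, with the S18 paralogs, Mrps30, Mrps36, mt-Rnr1, mt-Rnr2 and, per related list, up to 4 called in each direction. Results of some genes that this rule takes are not given. Mrpl19, Mrps23, Mrps31, Mrpl53, the pseudogenes, the head-to-head pairs, the overlapping genes and the sequences shown were chosen after their values were seen. Alternatives were other scalings (total count, upper-quartile factors, size factors of DESeq2 1.42.0), other filters, the DESeq2 Wald test, limma-voom (limma 3.58.1), a replicate block, offsets for GC content and length, and leaving out each library.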

Additional observations from a re-analysis of the deposited data

How the results depend on the processing

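In 16 alternative fits, 9 of the 17 called genes were called every time (Mrpl1, Mrpl12, Mrpl21, Mrpl41, Mrpl46, Mrpl54, Mrps15, Mrps28 and Mrps34), 8 lost the call at least once and 0 changed sign. Large subunit genes called lower numbered 7 with upper-quartile factors, with total count alone and by the DESeq2 Wald test, against 9. Of the 63 genes not called, 7 were called in at least 1 fit. Small subunit genes called higher numbered 1 in place of 0 with upper-quartile factors and with a minimum mean of 5 CPM, and with uncentred offsets for GC content and length the large subunit had 1 gene higher and the small subunit 9 lower. Over all genes these offsets gave 1265 higher and 2473 lower (33.84% of calls higher), and upper-quartile factors 1838 and 1270 (59.14%), against 1543 and 1602 (49.06%) as reported. The DESeq2 Wald test gave 1011 higher and 1074 lower. The median log2 fold change over all genes was -0.038 with the uncentred offsets, 0.022 with upper-quartile factors and -0.0019 as reported. The uncentred offsets also leave out the TMM factors. The cause of the shifts in calls was not tested.

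Leaving out 1 library at a time, the large subunit had 6 to 9 genes lower and 2 to 4 higher, the small subunit 4 to 5 lower and 0 to 1 higher, and all genes 1116 to 1484 lower and 1238 to 1385 higher. The median log2 fold change ran from -0.09 to -0.03 for the large and from -0.11 to -0.05 for the small subunit. The difference in the ratio of subunit sums was 2.06% without the 3 most abundant genes of each subunit and 3.59% without genes over 20% overlapped or shared, and with only tested genes 3.23%. With subunits by structure it was 3.30%. The settings without overlapped genes, with only tested genes, without pseudogenes (3.28%) and without Mrps23 (2.88%) were chosen after seeing the data. Without a filter the ratio has no separate value, since it already uses every row.

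Genes near 0 changed sign without being called. Mrpl9 was 0.0017 with DESeq2 size factors, 0.021 with upper-quartile factors, 0.012 with total count alone and 0.013 with a minimum of 5 CPM. Mrps17 was 0.014, 0.0055 and 0.0059 under the last 3 of these. With offsets for GC content and length, centred and not centred, Mrpl3 was -0.017 and -0.049, Mrpl42 -0.0068 and -0.039, and Mrps30 -0.012 and -0.045. Leaving out 1 library at a time, the values ran from -0.014 to 0.040 for Mrpl3, -0.036 to 0.049 for Mrpl9, -0.042 to 0.017 for Mrps17, -0.013 to 0.047 for Mrps30, -0.105 to 0.024 for Mrps18b, -0.068 to 0.020 for Mrps36 and -0.17 to 0.0076 for Mrps21.

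With the replicate number as a block, 1667 genes were higher and 1764 lower, and 9 large subunit genes were lower and 3 higher, and 5 small subunit genes lower and 0 higher, the same counts as without the block. Libraries that share a number did not deviate together (correlations -0.0182, 0.0132 and 0.00842, against -0.0279 to 0.0187 for different numbers). This check cannot tell whether the numbers mark shared cultures, since pairing need not leave a common deviation. Genes under about 2 CPM, such as Mrps18c, are limited by depth.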
